A study of Arabidopsis thaliana with 6 samples.

Results

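The genes on both sides of ICS1 on chromosome 1 of Arabidopsis thaliana were compared between rosettes of the sid2.2 mutant and rosettes of the wild type Col-0. The members are all probe sets named for a single gene whose locus lies between AT1G73000 and AT1G77500, taken in locus order and with no limit on signal. They number 234 probe sets for 233 genes, out of 13264 genes with such a probe set on the whole array. Before ICS1 in locus order lie 83 of these genes and after it lie 150. The same stretch holds 467 protein-coding genes other than ICS1 in RefSeq (TAIR10.1), so 49.9% of them were measured. ICS1 itself (AT1G74710) had no named probe set and was not analysed here, nor were genes between the members that lack such a probe set, such as CPK30 (AT1G74740).

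The mutant is sid2.2, which the series title calls an ICS1 mutant, and it was set against the wild type Col-0. The sources used here do not give the lesion in sid2.2 or any further allele. Both genotypes grew under 0.016 mM sulfate for 60 days in short days of 8 h light and 16 h dark, so low sulfate is shared by all samples. Each of 3 cultures gave 1 pooled RNA of the rosettes of more than 6 plants per genotype, and each pool was hybridised to 1 array, 3 per genotype and 6 in all. Arrays are named below by genotype and culture number.

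ICS1 encodes isochorismate synthase, a plastid enzyme that turns chorismate into isochorismate, the precursor of most of the salicylic acid that leaves make on pathogen attack. Plants that lack it accumulate little of this hormone. Arabidopsis genes lie close together along the chromosome, and neighbours on a chromosome need share neither function nor control. The comparison asks how the nearest neighbours differ between the genotypes and how the size of the difference runs with distance.

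Signals are linear MAS5 intensities, a summary of the probes of a set after subtraction of background, and every difference is sid2.2 minus Col-0 on the log2 scale with its standard error from limma. Median intensities per array were 131 to 162. The 27 probe sets for bacterial transcripts not present in plants gave a background level per array, their 95th percentile, of 27.9 to 39.9. Sid2.2 replicate 2 had the lowest mean correlation with the other arrays (r = 0.925, against 0.932 to 0.940 for the others, across probe sets). Leaving out Col-0 replicate 3 changed the number of calls over the whole array to 147 of 22746 (0.646%), where the fit of all arrays called 0. Col-0 replicate 3 itself had a mean correlation of 0.936 with the other arrays. Values without these 2 arrays, a setting chosen after seeing the data, are given beside the members the results turn on. Calls in that setting are not independent support. Of 2 pairs of actin control probe sets, whose 3' over 5' signal ratio reflects RNA quality, one gave ratios of 5.34, 6.51 and 8.34 in sid2.2 and 4.91, 4.85 and 4.81 in Col-0, without overlap. The other pair gave 17.3, 37.1 and 23.3 in sid2.2 and 24.7, 15.0 and 19.7 in Col-0, which overlapped and were highest in sid2.2 replicate 2. The part of RNA quality in the differences below was not tested. The leaf markers RCA, PRK, SBPASE and LHCB4.1 had signals of at least 5038 on every array. The root marker PYK10 was above background on all 6 arrays, at 32.0 to 232, and ATA27, an anther gene that is also a member, was at background on all, at 1.85 to 11.9. The other leaf, root, flower and seed markers looked for had no named probe set. In whole rosettes, fewer cells of a type and less RNA per cell cannot be told apart.

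TRZ1, the gene immediately before ICS1, was the one member whose signal stood above background on all Col-0 arrays and on no sid2.2 array. TRZ1 (AT1G74700) encodes tRNase Z, an endonuclease that trims the 3' end of precursor tRNAs. Its signals were 10.6, 13.8 and 8.09 in sid2.2, against 201, 146 and 150 in Col-0. The genotypes were far from overlapping, and the 3 mutant arrays were all under the background level. The mean was 10.8 ± 2.84 in sid2.2 and 166 ± 30.6 in Col-0 (SD, n = 3 each). Across the array, 0.308% of probe sets had this pattern of background in sid2.2 and signal in Col-0.

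The log2 difference of TRZ1 was -3.96 (SE 0.44, 95% interval -4.95 to -2.97), and it was at least 4.65-fold lower in sid2.2 when the mutant arrays were set to their background level. It was -4.25, -3.41 and -4.21 within cultures 1, 2 and 3. By limma over all 22746 probe sets TRZ1 ranked 4 by p and had an adjusted p of 0.0597, outside the threshold of 0.05. The exact two-sided permutation test of its 3 against 3 arrays, which left the pairing by culture aside, gave p = 0.1, the smallest it can give. The adjusted p was 0.622 with culture as a replicate block, and ran from 0.0269 to 0.999 over 17 alternatives, 5 of which called it. Among these 5, the low-signal filter kept it through its Col-0 signals, and the floor set its sid2.2 arrays to their background levels. Leaving out each array or culture in turn gave differences of -4.23 to -3.77. Leaving out sid2.2 replicate 2 together with Col-0 replicate 3, a setting chosen after seeing the data, gave -4.21 (limma adjusted p = 0.0333).

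**Figure D1:**
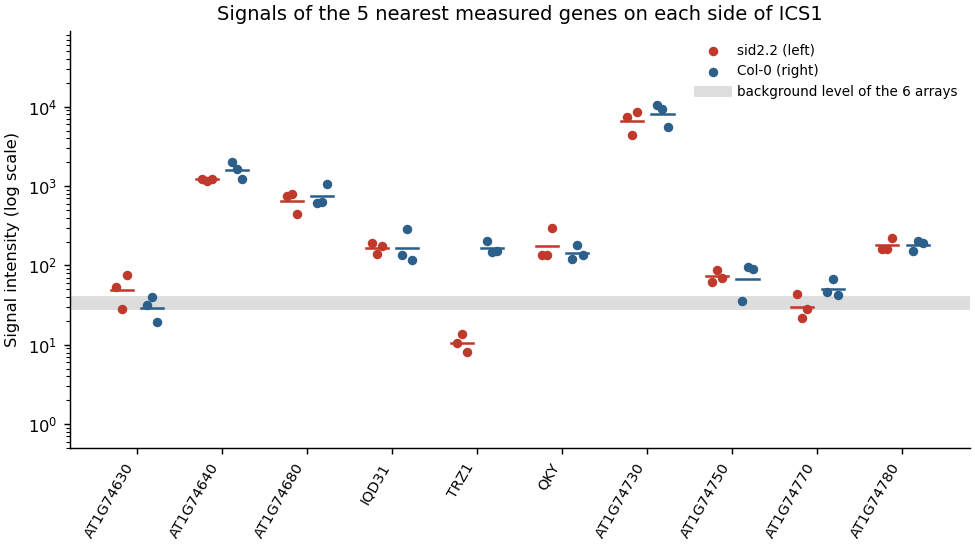
Signal intensity on a log scale for the 5 nearest measured genes on each side of ICS1, in chromosome order, with sid2.2 arrays left and Col-0 arrays right of each position. Lines are geometric means of 3 arrays and the grey band spans the background levels of the 6 arrays (27.9 to 39.9). TRZ1 lies under the band in sid2.2 and above it in Col-0, while the signals of IQD31 and QKY overlap between the genotypes.

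On the other side of ICS1 the first gene, QKY, had overlapping signals. QKY (AT1G74720) encodes QUIRKY, a membrane protein of plasmodesmata needed for normal organ shape. It had signals of 136, 135 and 295 in sid2.2, against 122, 179 and 136 in Col-0. Sid2.2 replicate 3 was the high array, and the other 5 lay close together. The difference was 0.28 (SE 0.37, 95% interval -0.57 to 1.14, limma adjusted p = 0.909), so a change of the size seen in TRZ1 lies outside its interval.

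The gene on the far side of TRZ1, IQD31, had overlapping signals as well. IQD31 (AT1G74690) is a calmodulin-binding protein of the IQ67-domain family. Its signals were 191, 138 and 176 in sid2.2, against 135, 287 and 117 in Col-0. Both the highest and the lowest array were Col-0, so the wild type enclosed the mutant. The difference was 0.0097 (SE 0.38, 95% interval -0.85 to 0.87).

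Farther out before ICS1, AT1G74680, the third gene, had signals of 740, 795 and 445 in sid2.2, against 604, 623 and 1075 in Col-0. AT1G74640, the eighth gene, had 1238, 1168 and 1240 in sid2.2, against 1984, 1638 and 1244 in Col-0. The genotypes of AT1G74640 did not overlap, but by a margin of a few units, and its difference of -0.39 (SE 0.21) had a limma adjusted p of 0.790. AT1G74630 had 53.4, 28.3 and 76.4 in sid2.2, against 31.5, 40.2 and 19.2 in Col-0, of which replicate 3 was at background.

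After QKY, AT1G74730 had signals of 7473, 4334 and 8583 in sid2.2, against 10388, 9468 and 5482 in Col-0. AT1G74750 had 62.7, 86.9 and 70.2 in sid2.2, against 35.6, 96.8 and 90.8 in Col-0. AT1G74780 had 163, 159 and 220 in sid2.2, against 154, 206 and 189 in Col-0. In each of these 3 genes the genotypes overlapped, with differences of -0.32, 0.097 and -0.023. AT1G74770 had 2 probe sets. One had 43.7, 21.6 and 28.5 in sid2.2, against 46.5, 66.8 and 42.3 in Col-0 (difference -0.76, SE 0.47). In that set only 1 sid2.2 array was above background, and all Col-0 arrays were. The other set was under the background level on every array.

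AT1G74790, the seventh gene after ICS1, had 252, 268 and 236 in sid2.2, against 212, 197 and 203 in Col-0, without overlap, a difference of 0.30 (SE 0.23, limma adjusted p = 0.839). Besides TRZ1, the 30 other probe sets within 25 genes of ICS1 had differences between -0.92 and 1.96, and 2 of them were over 1 in size. These were AT1G74870 (1.96) and OTP43 (1.07), both described below, 15 and 19 genes after ICS1.

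**Figure D2:**
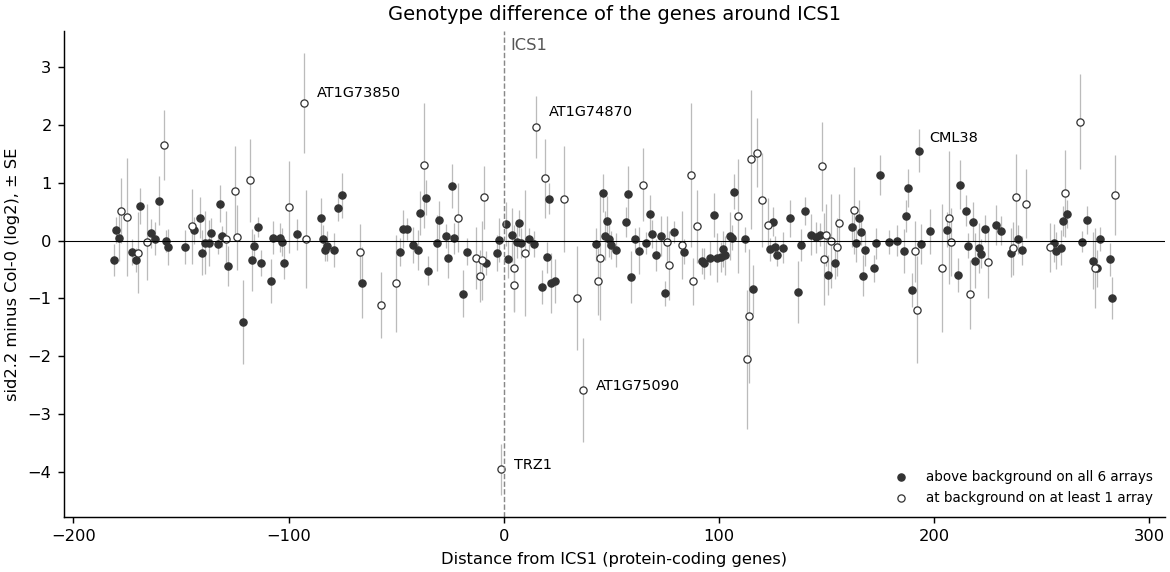
Log2 difference, sid2.2 minus Col-0, of each of the 234 probe sets (vertical axis, ± SE) by distance from ICS1 in protein-coding genes (horizontal axis, genes before ICS1 negative). Filled points were above background on all 6 arrays and open points were not. TRZ1 at -3.96 lies below all others, and most of the widely spread points are open.

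The size of the difference showed little relation to distance. Within 25 genes of ICS1 the 31 members had a median absolute log2 difference of 0.34, and without TRZ1 the other 30 had 0.33. The medians were 0.30 for 25 members at 26 to 50 genes, 0.30 for 40 members at 51 to 100 genes, 0.25 for 56 members beyond 100 and up to 150 genes and 0.32 for 82 members farther away. Over all 234 members it was 0.30, and over all 22746 probe sets it was also 0.30. The rank correlation of size with distance was -0.055 across the 234 members and -0.043 without TRZ1, as a description of probe sets that share the same 6 arrays.

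The sides differed in how the size ran outwards from ICS1. Before ICS1 the medians fell unevenly, at 0.39, 0.25, 0.29, 0.20 and 0.20 from the nearest bin (13 members) to the farthest. After ICS1 they showed no decline, at 0.31, 0.34, 0.30, 0.28 and 0.33. This difference between the sides was not tested. Adjacent measured genes shared little of their differences, with a Pearson r between neighbours of -0.044 over 232 pairs, against 0.013 over 13259 pairs of adjacent genes on all chromosomes. The signed differences were nearly balanced, 110 above 0 (47%) and 124 below, where 51.4% of all probe sets lay above 0. Their median was -0.022, and it was 0.109, -0.023 and 0.015 within cultures 1, 2 and 3. Members within 25 genes of ICS1 stood lower in culture 2 (median -0.42, or -0.41 without TRZ1) than in cultures 1 (0.087) and 3 (0.19). Over all probe sets the medians were 0.15, -0.042 and -0.0044 in cultures 1, 2 and 3. Culture 2 includes sid2.2 replicate 2, the array least correlated with the others, and this lower median was not tested.

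**Figure D3:**
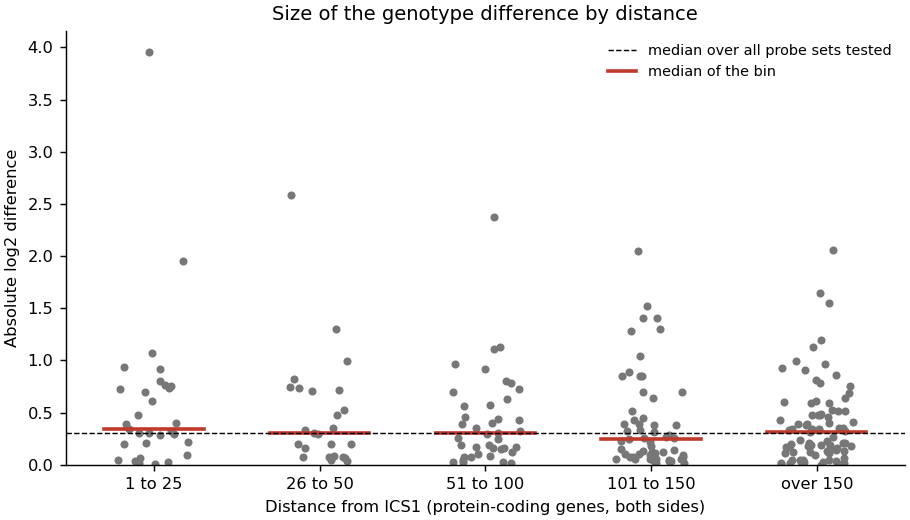
Absolute log2 difference of each member (points) in 5 bins of distance from ICS1, both sides together. Red lines are the medians of the bins (0.34, 0.30, 0.30, 0.25 and 0.32) and the dashed line is the median over all probe sets (0.30); TRZ1 is the highest point of the first bin.

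No member passed the test in the fit of all 6 arrays. Limma called 0 of the 234, and 0% of all probe sets. At an unadjusted p under 0.05 stood 21 members (8.97%), where 6.84% of all probe sets did. Of these 15 were higher in sid2.2 (4.37% of all probe sets were) and 6 lower (2.47% were). With culture as a replicate block the members numbered 15 (6.41%), where 4.53% of all probe sets did. Of the 31 members within 25 genes of ICS1, 5 were among the 21 (16.1%), and of the 203 farther away, 16 were (7.88%). Without TRZ1 the nearer share was 4 of 30 (13.3%). This difference in shares was not tested. A log2 difference over 1 in size occurred in 20 members (8.55%), against 11.8% of all probe sets. These were 13 at 1 or higher (7.42% of all probe sets) and 7 at -1 or lower (4.36%).

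The arrays entered changed these counts for the members and the whole array alike. Without sid2.2 replicate 2 and Col-0 replicate 3, 29 members (12.4%) had an unadjusted p under 0.05, where 11.7% of all probe sets did, and limma called 2 (0.387% of all probe sets), TRZ1 and AT1G73600. Without Col-0 replicate 3 alone the count was 31 (13.2%, against 13.6%), with TRZ1 and AT1G75460 called. Without culture 3 it was 42 (17.9%, against 15.9%), with TRZ1 and AT1G75900 called (0.633% of all probe sets). It was 12 without Col-0 replicate 1 (5.13%, against 4.2%) and 12 without Col-0 replicate 2 (5.13%, against 4.56%). It was 9 without culture 1 (3.85%, against 3.5%) and 10 without culture 2 (4.27%, against 4.55%), with 0 called in these 4 settings. Of the 153 members left by a filter on low signal, 13 (8.5%) had an unadjusted p under 0.05, where 7.57% of all filtered probe sets did. TRZ1 was the 1 member called with that filter (0.0293% of probe sets) and with dim signals raised to background (0.0791%).

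Intervals were wider for members with signals at background. Above background on all 6 arrays were 165 members (65% of all probe sets were), and 20 were under it on every array (14.8% were). The remaining 49 crossed it. The median half-width of the 95% interval was 0.66 for the 165, against 1.87 for the 20. Differences of the 165 ran from -1.41 to 1.55, with 3 over 1 in size, and for 93 the whole interval lay between -1 and 1. The other 17 of the 20 differences over 1 in size belonged to members at background on at least 1 array.

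The signals of the genotypes did not overlap for 32 members (13.7%), where 11.8% of all probe sets did not. In sid2.2, 19 were higher (6.94% of all probe sets were) and 13 were lower (4.86% were). Of the 32, 14 higher and 10 lower ones were above background on all 6 arrays. All 3 cultures had the same sign for 51 members (21.8%), against 23.1% of all probe sets. Within 25 genes of ICS1 the genotypes did not overlap for 7 of 31 members (22.6%), or 6 of 30 without TRZ1 (20%), against 25 of 203 farther away (12.3%), a difference in shares that was not tested.

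Among members with a higher signal in sid2.2, CML38 had the smallest p. CML38 (AT1G76650, 193 genes from ICS1) is a calmodulin-like calcium sensor. It had 287, 702 and 390 in sid2.2, against 167, 175 and 107 in Col-0, with sid2.2 replicate 2 the highest array. The difference was 1.55 (SE 0.37, limma adjusted p = 0.457), and 0.97 (adjusted p = 0.268) without sid2.2 replicate 2 and Col-0 replicate 3. Its tandem neighbour AT1G76640 (CML39), another calmodulin-like gene, lay under the background level on every array.

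AT1G74870, 15 genes from ICS1, had 90.5, 208 and 77.1 in sid2.2, against 46.2, 29.5 and 18.2 in Col-0. The genotypes did not overlap, and Col-0 replicate 3 was at background. The difference was 1.96 (SE 0.54, limma adjusted p = 0.551) and was 1.18 without the 2 arrays named above. ALDH10A8, 21 genes from ICS1 and of the aldehyde dehydrogenases that oxidise betaine aldehyde and related amino aldehydes, had 2220, 2165 and 2559 in sid2.2, against 969, 1412 and 1997 in Col-0. The mutant arrays were close together and all above the wild type, with a difference of 0.72 (SE 0.27, limma adjusted p = 0.672). It was 0.46 without Col-0 replicate 1, the lowest array, and 1.03 (adjusted p = 0.171) without sid2.2 replicate 2 and Col-0 replicate 3.

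A further 3 of the higher members were above background on all arrays. AT1G76470 had 117, 86.4 and 111 in sid2.2, against 43.1, 50 and 49.5 in Col-0, a difference of 1.13 (SE 0.35). AT1G76600 had 644, 1355 and 605 in sid2.2, against 457, 358 and 488 in Col-0, a difference of 0.91 (SE 0.32). AT1G75810 had 926, 1106 and 1112 in sid2.2, against 541, 393 and 922 in Col-0, a difference of 0.85 (SE 0.30). The genotypes did not overlap in any of them, and none passed (limma adjusted p = 0.602, 0.651 and 0.662). AT1G76600 rested in large part on sid2.2 replicate 2, with 0.54 without that array and 0.40 without culture 2. AT1G75810 was 0.56 without Col-0 replicate 2 and 0.52 without culture 2. Without sid2.2 replicate 2 and Col-0 replicate 3 the 3 genes differed by 1.30, 0.63 and 1.14.

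The last 4 of the 10 higher members included 3 at background in 1 genotype or both. AT1G74460 had 98.8, 75.8 and 87.2 in sid2.2, against 42.1, 38.0 and 57.6 in Col-0. OCT1, an organic cation and carnitine transporter, had 48.4, 29.1 and 42.3 in sid2.2, against 10.8, 24.9 and 7.16 in Col-0. AT1G75920 had 40.8, 36.1 and 48.5 in sid2.2, against 20, 22.3 and 6.81 in Col-0. OCT1 and AT1G75920 were the 2 members above background on all sid2.2 arrays and on no Col-0 array (0.132% of all probe sets were), by at least 1.28-fold and at least 1.36-fold. The margins were narrow. OCT1 had 29.1 on sid2.2 replicate 2 against a level of 27.9, and AT1G75920 had 40.8 on sid2.2 replicate 1 against 39.4. AT1G73850 was under the background level on every array, so no fold is given. Without sid2.2 replicate 2 and Col-0 replicate 3, the fitted differences were 1.46 for OCT1 (1.65 with all arrays), 1.07 for AT1G75920 (1.52 with all arrays) and 1.21 for AT1G74460 (0.94 with all arrays). AT1G75920 was 0.97 without Col-0 replicate 3 and 0.86 without culture 3. None of the 4 passed (limma adjusted p = 0.692, 0.672, 0.692 and 0.665).

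**Figure D4:**
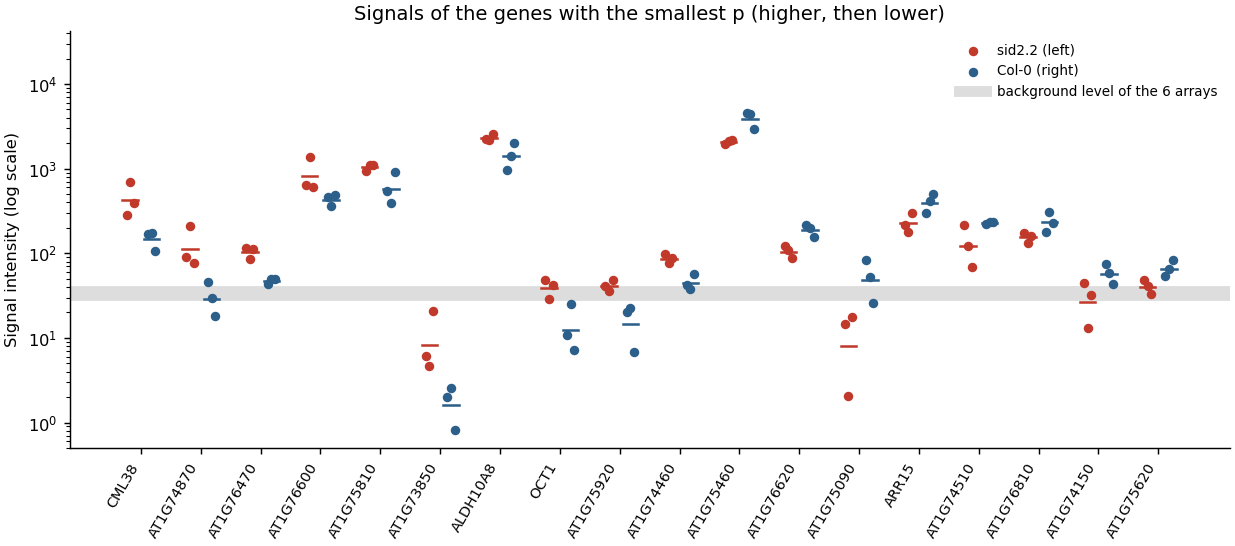
Signal intensity on a log scale for the members with the smallest p and the same sign in all cultures, the 10 higher in sid2.2 first and then the lower ones that are not among the nearest neighbours. The sid2.2 arrays are left and Col-0 arrays right of each position, lines are geometric means of 3 arrays, and the grey band spans the background levels. All 6 points of AT1G73850 and the sid2.2 points of AT1G75090 lie under the band.

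Among members with a lower signal in sid2.2, AT1G75460 had the smallest p after TRZ1. It had 1963, 2111 and 2163 in sid2.2, against 4550, 4453 and 2955 in Col-0. The mutant arrays were within a narrow range and all below the wild type, of which replicate 3 was nearest. The difference was -0.91 (SE 0.22, 95% interval -1.41 to -0.42, limma adjusted p = 0.457). Without Col-0 replicate 3 it was -1.12 and was called (limma adjusted p = 0.0429), and without that array and sid2.2 replicate 2 the adjusted p was 0.0760.

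AT1G76620 had nearly the same difference in every culture, -0.85, -0.87 and -0.84. Its signals were 121, 108 and 86.9 in sid2.2, against 218, 199 and 156 in Col-0 (difference -0.86, SE 0.29, limma adjusted p = 0.632). AT1G75090 had 14.6, 2.06 and 17.6 in sid2.2, against 83.1, 53.1 and 25.7 in Col-0, with 2 of 3 Col-0 arrays and no sid2.2 array above background. It was at least 1.37-fold lower in sid2.2, although the fitted difference was -2.58 (SE 0.90). That difference was -1.59 without sid2.2 replicate 2, the lowest array, and -1.53 without culture 2.

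ARR15 lies 18 genes after ICS1 and AT1G74510 lies 19 genes before it. ARR15, a type-A response regulator that dampens cytokinin signalling, had 216, 179 and 299 in sid2.2, against 297, 414 and 497 in Col-0, overlapping by sid2.2 replicate 3. Its difference was -0.80 (SE 0.29, limma adjusted p = 0.667), and -0.47 without sid2.2 replicate 2 and Col-0 replicate 3. AT1G74510 had 214, 123 and 68.1 in sid2.2, against 222, 237 and 232 in Col-0. Its wild-type arrays were alike and its mutant arrays were spread over a wide range. The difference was -0.92 (SE 0.41), and -0.50 without sid2.2 replicate 3 or without culture 3.

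The other lower members by smallest p were AT1G76810 (-0.59), AT1G74150 (-1.11), AT1G74640 (-0.39, described above) and AT1G75620 (-0.70), with limma adjusted p of 0.779 or more. At background were 2 sid2.2 arrays of AT1G74150 and 1 of AT1G75620. AT1G74150 was -0.60 without sid2.2 replicate 2 and -0.59 without culture 2, AT1G76810 was -0.38 without Col-0 replicate 2 and -0.27 without culture 2, and AT1G75620 was -0.39 without culture 3. AT1G73600 and AT1G75900, singled out after their values were seen, were called when particular arrays were left out. AT1G73600 had 2154, 745 and 2337 in sid2.2, against 7524, 7878 and 1188 in Col-0. Col-0 replicate 3 was far below the other wild-type arrays, and the difference of -1.41 (limma adjusted p = 0.786) became -1.78 (adjusted p = 0.0247) without that array and sid2.2 replicate 2. AT1G75900 had 591, 443 and 1018 in sid2.2, against 1623, 1526 and 624 in Col-0, a pattern that turned round in culture 3. Its difference was -0.85 (limma adjusted p = 0.778) and became -1.62 (adjusted p = 0.0433) without culture 3.

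**Figure D5:**
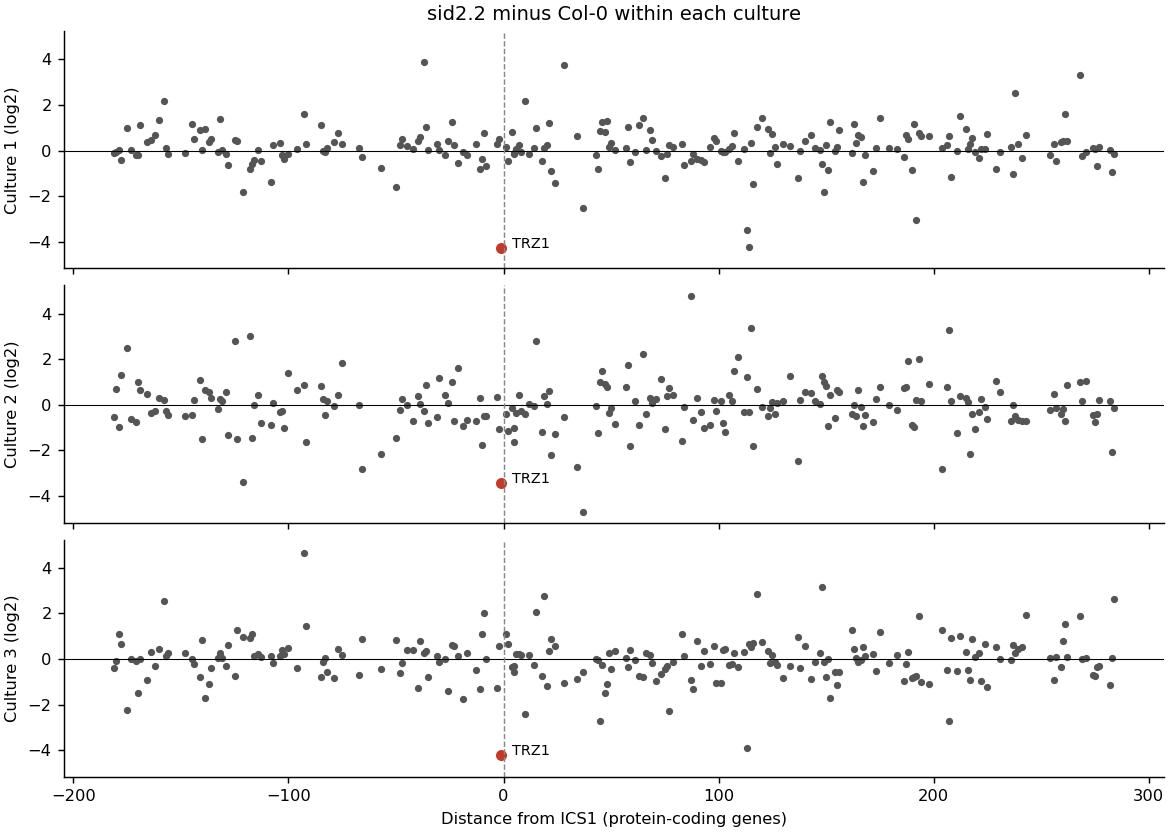
Log2 difference, sid2.2 minus Col-0, of each member within cultures 1, 2 and 3 (panels from top to bottom) by distance from ICS1 in protein-coding genes. TRZ1 (red) lies at -4.25, -3.41 and -4.21, and all 3 cultures had the same sign for 51 of the 234 members.

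Of the members, 30 have a symbol other than the locus. Together with AT1G74470 and AT1G76640, which carry only a locus here, they made 32 genes that were read by role. The 4 genes of RNA processing were TRZ1, described above, and 3 others of which none had an unadjusted p under 0.05. OTP87, a pentatricopeptide repeat protein for editing of mitochondrial transcripts, differed by -0.61 (SE 0.45). OTP43, a protein of the same family for splicing of a mitochondrial transcript, differed by 1.07 (SE 0.69), with Col-0 replicate 3 at 8.13. LSM3B, of the ring that binds uridine-rich RNA in splicing and decay, had 1407, 1123 and 1037 in sid2.2, against 1354, 1016 and 1439 in Col-0, and differed by -0.091 (SE 0.21).

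Of the 7 genes of signalling and transcription, 3 lay above and 4 below 0, among them AT1G76640 at background. ORA47, an AP2/ERF factor that acts on jasmonate synthesis, had 72.7, 46.0 and 123 in sid2.2, against 135, 209 and 66.6 in Col-0, overlapping by culture 3 (difference -0.73, SE 0.52). The factors bZIP44 and GT2 differed by 0.46 (SE 0.33) and -0.35 (SE 0.48). In this group 2 genes, CML38 and ARR15, had an unadjusted p under 0.05 (6.84% of all probe sets), CML38 higher in sid2.2 and ARR15 lower.

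The 6 genes of plastids and metabolism held 3 with an unadjusted p under 0.05 (6.84% of all probe sets), TAPX lower in sid2.2 and SPPA and ALDH10A8 higher. TAPX, the thylakoid ascorbate peroxidase that removes hydrogen peroxide, had 868, 579 and 899 in sid2.2, against 1644, 2461 and 874 in Col-0. It differed by -0.92, -2.09 and 0.041 in cultures 1, 2 and 3, and the fitted difference was -0.99 (SE 0.37, limma adjusted p = 0.672). It was -1.19 (adjusted p = 0.122) without sid2.2 replicate 2 and Col-0 replicate 3, -0.64 without Col-0 replicate 2, -0.44 without culture 2 and -1.50 without culture 3. SPPA, a light-inducible chloroplast protease, had 699, 714 and 520 in sid2.2, against 405, 526 and 378 in Col-0 (difference 0.56, SE 0.23, limma adjusted p = 0.698). It was 0.39 without sid2.2 replicate 2 and Col-0 replicate 3. The values of ALDH10A8 stand above.

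Others of this group were close between genotypes. AT1G74470, the geranylgeranyl reductase that makes the phytyl chain of chlorophyll, had 9708, 6742 and 10817 in sid2.2, against 8155, 11105 and 7257 in Col-0, a difference of 0.036 (SE 0.26). OTC, the ornithine carbamoyltransferase of arginine synthesis, had 1704, 1545 and 1455 in sid2.2, against 1765, 1359 and 1504 in Col-0, a difference of 0.029 (95% interval -0.39 to 0.45). TY1, a plastid thioredoxin, differed by 0.19 (SE 0.30).

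The 3 genes of trafficking and cell contacts lay above 0. Besides QKY these were VPS46.2, of the ESCRT machinery that sorts membrane proteins into multivesicular bodies, at 0.19 (SE 0.22), and SEC5A, an exocyst subunit that tethers secretory vesicles, at 0.52 (SE 0.27). SEC5A had 409, 436 and 483 in sid2.2, against 214, 354 and 388 in Col-0, without overlap and with a limma adjusted p of 0.786. In the ubiquitin pathway UBC16, PUB43 and ATL8, a conjugating enzyme and a pair of ligases, differed by 0.078, 0.39 and -0.16.

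Of 4 genes of cell wall and cytoskeleton, 3 lay below 0. BGAL16, a beta-galactosidase, had 59.4, 67.3 and 67.5 in sid2.2, against 94.8, 89.3 and 86.9 in Col-0. Its replicates were tight and did not overlap, with a difference of -0.48 (SE 0.33, limma adjusted p = 0.829). GH9B7, an endoglucanase of the cell wall, differed by -0.40 (SE 0.26), and TUB1, a beta-tubulin, by -0.26 (SE 0.33). The multicopper oxidase relative sks18 differed by 0.079 (SE 0.41), the purine permease PUP15 by -0.019 (SE 0.45) and PRAF1 by -0.38 (SE 0.62). LCR67, the defensin PDF1.1, was under the background level on all arrays. Over the 32 genes read by role the median difference was 0.032, with 18 above and 14 below 0 and 0 called.

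Lists of loci chosen from general knowledge reached few members. Of 43 loci in 6 lists, 6 were measured and 0 were called (0% of all probe sets were). The defence and salicylic acid list had 3 of 11 measured, LCR67, AT1G76640 and CML38. The hormone list had ARR15 as 1 of 11, the photosynthesis list TAPX as 1 of 6 and the development list QKY as 1 of 6. The glucosinolate and sulfur list (4 loci) and the stress and metabolism list (5 loci) had 0. The other loci of the lists were not analysed here.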

How the data were processed

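Rosette RNA of 2 genotypes was measured on 6 arrays. The authors deposited 1 linear intensity per probe set and array, computed with MAS5 per the submitters' processing notes. The MAS5 version, the scanner steps and the genome build were not found in those notes or labels. Means after trimming 2% at each end were the same (500.05) on every array, so the values had been scaled to a common level. Such scaling removes any change in total signal, and log2 values of dim probe sets vary more.

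Probe sets were named through the platform annotation, and loci, symbols and gene order came from RefSeq (TAIR10.1). Of 22810 probe sets, 13513 had 1 gene (29 without a locus), 503 several and 8794 none, a number that includes the 64 controls. Since the files name no build, coordinates are not printed.

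All 22746 probe sets other than controls were fitted on the log2 scale in R 4.3.3 by lmFit and eBayes of limma, version 3.58.1, with an intensity trend. Tests were two-sided, with Benjamini-Hochberg adjustment over all 22746 and a threshold of 0.05. The fit was tested on simulated data. The median residual SD was 0.45, and 3 arrays per genotype limit the precision. Bounds ("at least") set arrays at background to the background level. Alternatives were a low-signal filter, the culture as block, other scalings, a floor, an offset, no trend, and arrays or cultures left out.

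Genes named were the 5 nearest on each side, the 10 higher and 10 lower ones with the smallest p and the same sign in all cultures, and measured members of the locus lists. Words in gene names matched few members (kinase, F-box, pentatricopeptide and ribosomal 0, transcription factor 1, transporter 2, peroxidase 1). Roles were grouped after the annotation was seen. The members and lists were chosen with earlier results of these data known. Same-numbered arrays came from 1 culture per the labels, which pairs them. Their deviations from the genotype means correlated at 0.015, -0.17 and -0.18 in cultures 1, 2 and 3.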

Additional observations from a re-analysis of the deposited data

How the results depend on the processing

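TRZ1 kept its direction under the alternatives run, but its size on the log2 scale was smaller with a floor (-2.22) or an offset (-2.75), both of which raise dim values, and its call changed. The log2 difference and limma adjusted p were -3.96 and 0.0378 with the dimmest 40% of probe sets removed, -2.22 and 0.0323 with dim values set to background, and -4.21 and 0.0333 without sid2.2 replicate 2 and Col-0 replicate 3 (a setting chosen after seeing the data). They were -4.02 and 0.0269 without Col-0 replicate 3, and -3.83 and 0.0421 without culture 3. In these settings it was called, and in the others it was not: 0.108 with quantile normalization, 0.0691 with median centring, 0.0692 with 16 added before log2, 0.0650 without the trend, 0.622 with the replicate block, and 0.183 to 0.999 with another array or culture left out. Over all the settings that left out an array or a culture, the difference was -4.23 to -3.77. The count of called members was 0 in the fit of all arrays, 1 with the low-signal filter (4 of 13648 probe sets) and 1 with the background floor (18 of 22746). It was 2 without sid2.2 replicate 2 and Col-0 replicate 3 (88 of 22746), and 0 to 2 with arrays or cultures left out, where 2 came without Col-0 replicate 3 or culture 3 (147 and 144 of 22746). Members at an unadjusted p under 0.05 numbered 21, against 13 of 153 with the low-signal filter, 15 with the replicate block and 9 to 42 with arrays or cultures left out (9 without culture 1, 10 without culture 2, 12 without Col-0 replicate 1 or 2, 42 without culture 3). The median absolute difference within 25 genes was 0.34 in the fit of all arrays and 0.36 to 0.49 with arrays or cultures left out, the highest without culture 1. Distance by locus number or 1 probe set per gene gave 0.34 and 0.33. Medians farther from ICS1 and over all probe sets are not given with arrays left out. How size ran with distance in those settings is therefore not shown. Of the 31 genes named by rule (the nearest genes, the smallest p and the locus lists), 8 turned sign under some setting. All 8 had 95% intervals that include 0 in the fit of all arrays. The count does not cover the other genes described. The replicate block changed no call. IQD31, near 0, turned to -0.056 with quantile normalization, -0.070 with median centring and -0.28 at the lowest with arrays left out (range -0.28 to 0.54), and -0.10 without both arrays. AT1G76640 took 0.21 with the floor, as LCR67 did, since every array of both was raised to its background level. That value is the difference between the background levels of the genotypes and does not measure the gene. With arrays or cultures left out, the ranges crossed 0 for AT1G74680 (-0.49 to 0.32), QKY (-0.13 to 0.63), AT1G74730 (-0.80 to 0.086), AT1G74750 (-0.37 to 0.35), AT1G74780 (-0.17 to 0.15, 0.090 without both arrays) and LCR67 (-0.50 to 1.29, -0.18 without both arrays). Apart from the floored value of AT1G76640, the cause of these changes was not tested.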
